A study of Mus musculus with 26 samples.

Results

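Promoter accessibility and transcript level were set side by side for the protein-coding genes of cultured mouse embryonic stem cells (mESC), which are pluripotent. A gene was called open when a region of the merged M-ATAC peak list lay within 1 kb of any of its GENCODE M21 transcript starts, and closed otherwise. Expressed genes had a TPM (a length-corrected transcript share) of at least 1 in the merged RNA-seq table, and silent genes had less than 0.1 TPM. Of 21607 protein-coding genes in that table, 18818 fell into 4 sets: 11471 were open and expressed, 993 open and silent, 859 closed and expressed, and 5495 closed and silent. The other 2789 genes, from 0.1 to under 1 TPM, belong to none of the sets. The members were chosen by their TPM and their regions in the merged list, so TPM, open state and peak strength in that list are given as descriptions, with no test.

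The cells were mESC of the KH2 line, cultured with LIF on irradiated feeder cells that were removed by pre-plating. M-ATAC cuts and tags accessible chromatin with Tn5 transposase loaded with methylated adaptors, and bisulfite conversion of the tagged fragments then adds DNA methylation (DNAme) to the same library. There were 4 M-ATAC samples, 2 samples with the same adaptors taken before conversion (M-ATAC-NC), 2 regular ATAC-seq samples with Nextera adaptors and 2 RNA-seq samples. No label ties a sample to a culture of its own, so the spread between samples may be technical. The merged M-ATAC list held 66726 distinct regions, of which 17442 lay within 1 kb of a protein-coding start, and the single samples held 24113 to 32999. TPM and the merged list come from pooled replicates and have no replicate error.

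A promoter is the stretch of DNA around a transcription start where RNA polymerase and the general factors assemble, and transposase cuts it where nucleosomes leave it free. Many mammalian promoters lie in CpG islands, stretches rich in the dinucleotide CpG that usually stay unmethylated, whereas many promoters of tissue-specific genes are poor in CpG. Promoters of developmental regulators in mESC can be accessible while they make little RNA. In these bulk samples a state held by few cells and a weak state in every cell cannot be told apart, for accessibility as for RNA.

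The 150 bases upstream of the 5′ end of 6 genes are shown because CpG content differed between the sets, with every CG in capitals, read 5′ to 3′ on the strand of the gene from the GRCm38 (mm10) reference. Rplp1 (chr9:61914543-61914692, minus strand), an open and expressed gene for a protein of the ribosomal stalk, held 20 CGs. The open and silent genes were Rab3c (chr13:110280997-110281146, minus strand), a small GTPase of secretory vesicles, with 3 CGs, and Calb1 (chr4:15881114-15881263, plus strand), a calcium-binding protein of neurons, with 7. The closed and expressed genes were Pfn1 (chr11:70654645-70654794, minus strand), the actin-binding protein profilin, with 7 CGs, and Ifitm3 (chr7:141010771-141010920, minus strand), an interferon-induced membrane protein, with 2. Alb (chr5:90460747-90460896, plus strand), the closed and silent gene for serum albumin, held 3.
Rplp1: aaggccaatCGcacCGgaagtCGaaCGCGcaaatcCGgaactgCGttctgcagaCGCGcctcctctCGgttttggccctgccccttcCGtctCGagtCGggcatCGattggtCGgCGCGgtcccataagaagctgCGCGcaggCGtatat
Rab3c: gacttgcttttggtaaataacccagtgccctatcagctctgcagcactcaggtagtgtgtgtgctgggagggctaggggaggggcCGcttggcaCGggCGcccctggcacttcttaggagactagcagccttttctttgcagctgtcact
Calb1: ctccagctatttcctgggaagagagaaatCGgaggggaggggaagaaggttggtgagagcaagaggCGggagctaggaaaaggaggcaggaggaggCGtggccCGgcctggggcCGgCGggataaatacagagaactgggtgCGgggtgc
Pfn1: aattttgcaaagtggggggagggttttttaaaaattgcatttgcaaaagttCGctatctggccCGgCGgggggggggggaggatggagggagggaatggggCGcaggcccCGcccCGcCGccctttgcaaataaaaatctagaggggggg
Ifitm3: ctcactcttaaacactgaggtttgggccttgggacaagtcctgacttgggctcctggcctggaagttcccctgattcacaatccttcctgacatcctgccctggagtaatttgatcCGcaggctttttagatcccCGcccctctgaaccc
Alb: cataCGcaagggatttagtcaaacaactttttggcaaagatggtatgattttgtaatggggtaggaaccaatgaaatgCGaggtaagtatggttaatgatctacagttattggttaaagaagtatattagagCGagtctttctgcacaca
The median number of CGs in such a stretch was 10 for open expressed, 5 for open silent, 4 for closed expressed and 1 for closed silent genes, and 6 for all protein-coding genes. At least 1 CG stood in 97.7%, 92.8%, 89.6% and 63.5% of the 4 sets in the same order.

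Open promoters were more common the higher the TPM of a gene, up to about 50 TPM. Of all protein-coding genes, 65.4% were open, 57.1% were expressed and 30.0% were silent. Among expressed genes 93.0% were open, and among silent genes 15.3% were. The share open was 7.36% at 0 TPM (335 of 4555 genes, Wilson 95% interval 6.63 to 8.15%), 34.0% above 0 and under 0.1 TPM, and 59.5% from 0.1 to under 1 TPM. It was 76.4% from 1 to under 2 TPM, 92.2% from 5 to under 10 TPM and 98.2% from 50 to under 100 TPM (97.3 to 98.7%). At 500 TPM or more it was 96.3% (209 of 217 genes, 92.9 to 98.1%), an interval that overlaps the 96.1 to 98.0% from 100 to under 500 TPM. These intervals cover counting error only.

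**Figure D1:**
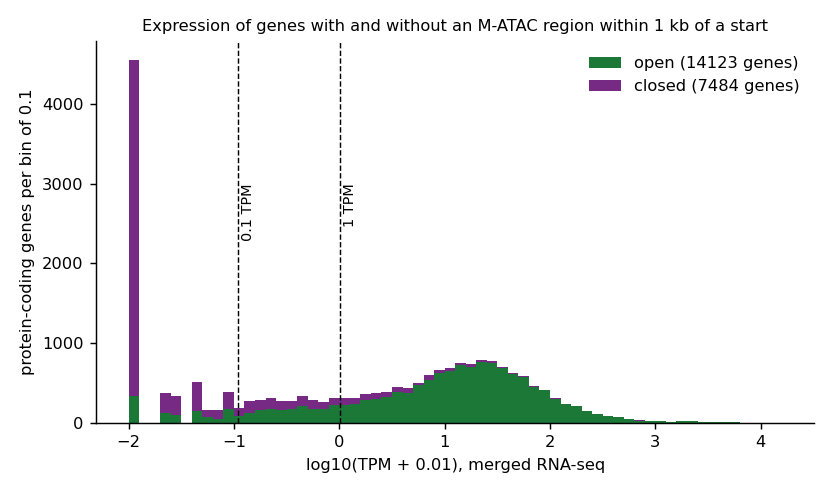
Number of protein-coding genes by log10(TPM + 0.01) in bins of 0.1, stacked as open (14123 of 21607 genes, green) and closed (purple), with dashed lines at 0.1 and 1 TPM. The column of genes at 0 TPM is mostly closed, and closed genes form a thin layer above 1 TPM.

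CpG content moved with the open state among expressed and silent genes alike. It was measured as the observed over expected number of CGs in 500 bp on each side of the 5′ end, a ratio that is low where CpG has been lost. A gene could be open at any of its starts, so the ratio and the region can belong to different starts. The median ratio was 0.733 in open expressed, 0.501 in open silent, 0.362 in closed expressed and 0.155 in closed silent genes. Among silent genes, 77.8% (361 of 464) of those with a ratio of 0.6 or more were open, against 6.64% (363 of 5467) of those under 0.4. For expressed genes the same shares were 97.2% (8389 of 8628) and 74.0% (1335 of 1803). Silent genes with a CpG-rich start were thus open more often than silent genes in all, at 15.3%.

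**Figure D2:**
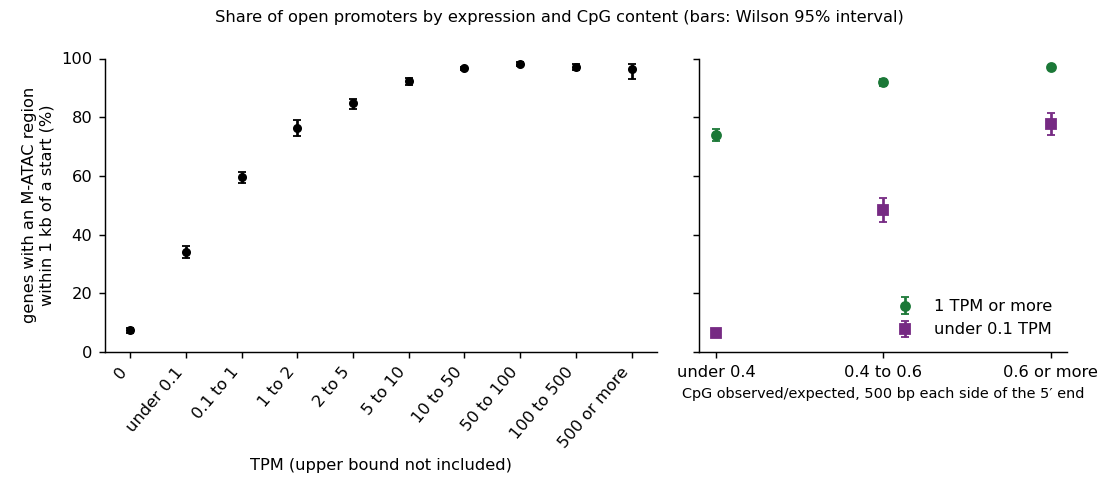
Percentage of genes with an M-ATAC region within 1 kb of a start, by TPM (left, all protein-coding genes, with genes at 0 TPM apart from those above 0 and under 0.1) and by CpG observed/expected (right, expressed genes as green circles and silent genes as purple squares), with Wilson 95% intervals. The share levels off above 10 TPM, and expressed and silent genes lie closest at a ratio of 0.6 or more, at 97.2% and 77.8%.

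Short sequence elements upstream of the 5′ end were counted on both strands. TATAAA, the core of the TATA box, stood in the last 50 upstream bases of 1.5% of open expressed, 3.22% of open silent, 4.19% of closed expressed and 8.97% of closed silent genes, against 3.96% of all protein-coding genes. GGGCGG, the letters of a GC box, stood in the last 250 bases of 57.0%, 34.8%, 35.5% and 5.73% of these sets, against 39.3% of all. TGACGTCA, the palindrome of the cyclic AMP response element, stood there in 2.68%, 1.71%, 0.815% and 0.874%, against 1.98% of all. CCAAT, which holds no CG, ranged only from 28.1% in closed expressed to 37.7% in closed silent genes, against 36.0% of all. GGGCGG and TGACGTCA hold a CG themselves, and none of the 4 motifs contains another. TATAAA holds only A and T, and the median GC content around the 5′ end was 59.0%, 54.3%, 54.3% and 43.9% in the sets. The part of base composition in the motif shares was not tested. The motif counts are matches of letters and not bound sites.

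Open expressed genes had the stronger regions of the open sets, and these covered more bases per gene. Peak strength was column 7 of the peak list, the fold enrichment over the local background given by MACS2, and each gene took its highest value within 1 kb. The median column 7 was 11.5 (quartiles 8.14 and 15.4) in open expressed and 7.75 (5.64 and 11.3) in open silent genes. The regions of a gene, added up over all its starts, covered a median of 623 bp in the first set and 396 bp in the second. A start lay inside a region in 92.6% and 57.1% of genes. The median number of distinct starts was 5 and 2, so more sequence was searched per gene in the first set. With the 5′ end of the gene alone, the medians of column 7 differed by 3.58, against 3.74 with all starts. Column 7 tracked TPM only loosely across open genes, with a Spearman correlation of 0.25 over all 14123 and 0.13 over the 11471 expressed ones. These genes share 1 pool of libraries and are not independent replicates. From the lowest to the highest quintile of column 7, the share of silent genes went from 14.1% to 3.19% and the median TPM from 3.26 to 19.2.

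**Figure D3:**
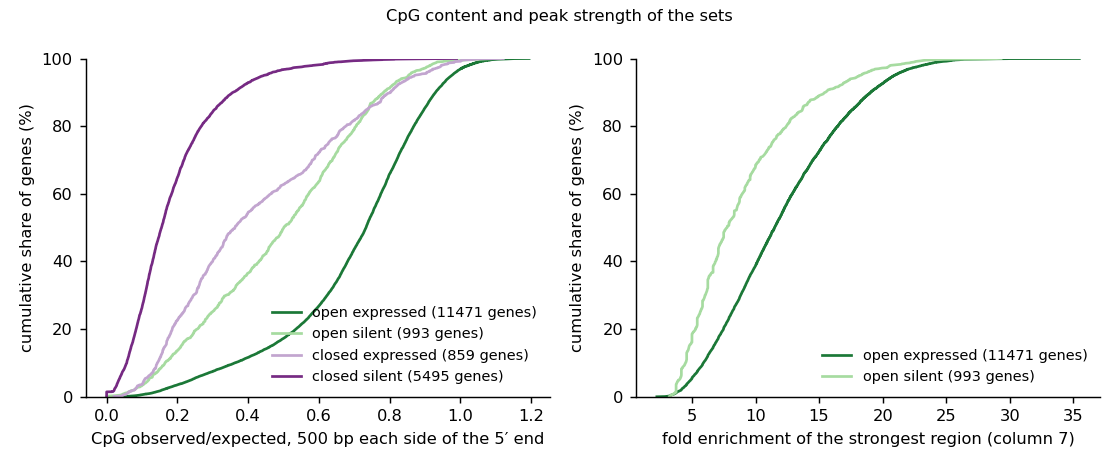
Cumulative share of genes by CpG observed/expected for the 4 sets (left) and by column 7, the fold enrichment of the strongest region within 1 kb, for the open sets (right). On the left, open silent (median 0.501) and closed expressed genes (0.362) run between open expressed (0.733) and closed silent genes (0.155), and on the right open silent genes lie at lower values than open expressed genes.

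The most abundant transcripts of the open expressed set did not have its strongest promoters. The 5 genes of highest TPM were Eef1a1, a translation elongation factor (12296 TPM), Rplp1 (9680 TPM), the glycolytic enzyme Gapdh (6547 TPM), and the ribosomal protein genes Rpl23a (6332 TPM) and Rps26 (6317 TPM). Their column 7 in the merged list was 14.1, 10.3, 8.57, 9.07 and 10.8, of which only that of Eef1a1 lay above the median of the set. Rplp1 had a peak in M-ATAC samples 1 and 3 at 6.67 and 6.196, in M-ATAC-NC 2 at 7.56 and in ATAC 1 and 2 at 4.77 and 4.73, and none in the other 3 samples. Rpl23a also had a peak in 5 of 8 samples, Rps26 in 7, and Eef1a1 and Gapdh in 8. Only 26.2% of the exonic 31-mers of Rplp1 (31-base words sampled along its exons) and 41.1% of those of Eef1a1 occur once in the genome, so reads of these genes may be shared with near copies.

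The 5 genes of highest column 7 in that set were Zfp959 (35.5), Gm14443 (34.7), Gm14401 (31.4), Zfp345 (31.2) and Tmsb15b1 (29.9), at 4.28 to 23.9 TPM. Zfp959 and Zfp345 carry names of zinc finger proteins, and Tmsb15b1, of the thymosin beta family, shares its region with Tmsb15l. All had a peak in 8 of 8 samples. Zfp959 stood at 20.4, 25.5, 23.6 and 24.7 in M-ATAC 1 to 4, at 15.8 and 17.9 in M-ATAC-NC, and at 11.2 and 15.0 in ATAC. In 3 of these 5 genes under 50% of exonic 31-mers were unique, so a region or a read could belong to a near copy. Zinc finger genes named Zfp as a class had 316 of 394 members in the open expressed set, where 53.1% of all protein-coding genes were. Of the 394, 347 (88.1%) were expressed, against 57.1% of all protein-coding genes. Thus 316 of 347 expressed members were open and 31 closed, to be read against the 93.0% open among all expressed genes. The median column 7 of the open Zfp genes was 12.5, against 10.9 over all open genes.

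Pluripotency genes were open and expressed with 1 exception. Of 21 listed, all expressed, 20 were open, near the 93.0% of all expressed genes, and Dppa3 (44.2 TPM), a maternal factor and marker of naive mESC, was closed. Pou5f1, the gene of OCT4, stood at 657 TPM with a column 7 of 8.55, Sox2 at 477 TPM with 10.5 and Nanog at 461 TPM with 4.33. The median column 7 of the 20 open members was 7.89, below the 10.9 of all open genes, and ranged from 2.46 for the NODAL co-receptor gene Tdgf1 to 19.2 for Klf5. Nanog had a peak in only 2 of 8 samples, M-ATAC 2 (6.21) and ATAC 1 (3.72), whereas Esrrb, Zfp42, Klf2, Klf5, Tbx3, Utf1 and Lin28a had one in 8. Dppa3 lay 1527 bp from the nearest merged region and had a peak in M-ATAC-NC 2 alone (3.63), with 49.4% of its exonic 31-mers unique. All 10 embryonic stem cell markers were open and expressed at 133 to 5394 TPM, and none was at 0.

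Housekeeping genes and the machinery of translation and respiration were nearly all expressed, and their open shares are to be read against the 93.0% of all expressed genes. All 18 housekeeping genes were expressed and 16 were open, and the lysosomal enzyme gene Gusb (15.2 TPM) was among the closed ones. Cytoplasmic ribosomal protein genes were open and expressed in 79 of 82 cases, mitochondrial ribosomal protein genes in 76 of 78, complex I subunits of the respiratory chain in 45 of 46 and proteasome subunits in 44 of 50. Of the 50 proteasome subunit genes 47 were expressed, and in the other 3 classes all were. The 3 closed and expressed cytoplasmic ribosomal protein genes were Rpl19, Rpl39l and Rpl3l. Their median TPM differed widely, with 2124 for cytoplasmic and 63.9 for mitochondrial ribosomal proteins, while the median column 7 was 10.3 for the first class and 12.6 for complex I subunits.

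The strongest open silent promoters had peaks in nearly every sample. The 10 of highest column 7 were Tshr (29.3), the thyrotropin receptor, Sun3 (28.5), a nuclear envelope protein of the testis, Rab3c (25.7), Filip1 (24.3), a filamin-binding protein, 1810062G17Rik (23.9), Fam90a1b (23.4), 4930558K02Rik (23.1), Cd46 (23.0), a complement regulator, Calb1 (22.7) and 1700024G13Rik (22.6). Their TPM was 0 to 0.06, and 9 of the 10 had a peak in all 8 samples. As the 10 were chosen by merged column 7, peaks in single samples follow in part from that choice. The 1 gene without a peak in all 8, 1700024G13Rik, had a peak in 7 samples and none in ATAC 1.

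Of these 10, 4 shared the region with an expressed neighbor. Tshr (5′ end at chr12:91384563, plus strand) shared it with Cep128, a centriole gene at 8.65 TPM, 1810062G17Rik with the annexin gene Anxa5 at 34.2 TPM, Fam90a1b with Apoo at 25.4 TPM and 4930558K02Rik with Pigc at 2.72 TPM. For these the region cannot be given to the silent gene alone. The 5 of highest column 7 with no start of another gene within 1 kb were Rab3c, Filip1, Cd46, Calb1 and 1700024G13Rik.

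Rab3c (5′ end at chr13:110280996, minus strand) had 0 TPM and a column 7 of 18.8, 17.0, 19.9 and 17.3 in M-ATAC 1 to 4, 14.2 and 13.2 in M-ATAC-NC, and 13.7 and 13.9 in ATAC. Filip1 (chr9:80012851, minus strand) had 0.03 TPM and stood at 16.8, 17.3, 10.6 and 16.8 in M-ATAC, 16.3 and 16.4 in M-ATAC-NC, and 14.8 and 13.7 in ATAC. For Rab3c the M-ATAC values all lay above the others, whereas for Filip1 the value of M-ATAC 3 was the lowest of the 8. Calb1 (chr4:15881264, plus strand) had 0.02 TPM and stood at 12.01, 16.1, 13.6 and 10.8 in M-ATAC, 11.5 and 9.61 in M-ATAC-NC, and 14.5 and 11.1 in ATAC, so its groups overlapped. In every sample these 3 genes exceeded the median column 7 of open expressed genes in that sample, which ranged from 6.04 in ATAC 1 to 9.50 in M-ATAC 2. The 3 genes were chosen for high column 7 in the merged list, so this describes the choice and is no test. The upstream bases of Rab3c and Calb1 printed above hold 3 and 7 CGs, on either side of the median of 5 for open silent genes.

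The 110 open silent genes (11.1%) whose region also lay within 1 kb of a start of an expressed gene had stronger regions than the other 883. Such sharing was found for 19.3% of open expressed genes. It was 11.8% over all 21607 protein-coding genes, of which closed ones have no region to share. All 2545 sharing genes were thus among the 14123 open ones. In the 110 open silent genes the median column 7 was 13.1 against 7.36 in the other 883, and the median CpG ratio 0.694 against 0.472. A peak in all 4 M-ATAC-NC and ATAC samples was found for 71.8% against 33.5%. In the shared genes column 7 thus lay above the 11.5 of open expressed genes, and in the others below it. TPM was listed at 0 for 49.1% of the shared and 31.8% of the other genes.

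Transcription factors of cell lineages were open across a wide range of TPM. Of 35 such genes 26 were open, where 65.4% of all protein-coding genes were, namely 13 open expressed, 5 open silent and 8 from 0.1 to under 1 TPM. The open silent ones were Pdx1 of the pancreas (0.09 TPM, column 7 of 17.4), Neurog2 of neurons (0.06 TPM, 8.95), Dlx5 of bone and forebrain (0 TPM, 5.93), Hand2 of heart and limb (0.02 TPM, 5.04) and Nkx2-2 of the ventral neural tube and pancreas (0.03 TPM, 4.21). Between the limits, Nkx6-1 (0.14 TPM, 18.6), Isl1 (0.28 TPM, 17.1) and Neurog1 (0.41 TPM, 12.7) had a peak in 8 of 8 samples. The myogenic factors Myf5 and Pax7 were closed and silent. Among all protein-coding genes 4.6% were open silent and 25.4% closed silent. The median column 7 of the 26 open factors was 6.11, below the 10.9 of all open genes. Pdx1 had a peak in M-ATAC 1 to 4 at 5.75, 11.7, 10.7 and 6.82 and in M-ATAC-NC at 5.28 and 7.48, and none in ATAC.

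Larger families of developmental genes held open members under 1 TPM. Over all protein-coding genes, 65.4% were open and 4.6% were open silent. Hox genes, which pattern the body axis, had 21 of 39 members open (53.8%), below the share of all genes. Of the Hox genes 26 lay between 0.1 and 1 TPM, and the median column 7 was 6.36. The 4 open silent Hox genes were Hoxc5, Hoxd3, Hoxd10 and Hoxd11. Genes of the Sox, Fox, Pax, Tbx, Lhx, Dlx and Gata families were open in 82 cases (78.1%), above the 65.4% of all genes, with 12 open silent members and a median column 7 of 7.06. Replication-dependent histone genes were open in 55 of 65 cases (84.6%). Of the 65, 21 were open expressed, 7 open silent, 2 closed expressed and 2 closed silent, and 33 lay from 0.1 to under 1 TPM. Their mRNAs lack a poly(A) tail, and the RNA selection behind the TPM table is not given in the sources used here.

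Of 21 genes of terminal tissue function in the table, 6 were open, where 65.4% of all and 15.3% of silent protein-coding genes were. Only 5 of the 21 were expressed, 9 lay from 0.1 to under 1 TPM, and 6 were closed and silent, among them Alb, the insulin genes Ins1 and Ins2, the globin gene Hbb-bs and the kidney gene Umod. The keratin gene Krt14 was the only open silent member, at 0.09 TPM with a column 7 of 5.25 and no peak in any sample. Apoa1 (3.20 TPM), Lyz2 (5.06 TPM) and Ttr (2.98 TPM) were closed and expressed. The median CpG ratio was 0.212 for this list and 0.630 for the lineage factors.

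DNAme in the promoter regions was low in the open sets and higher in the silent one. Over cytosines of CGs with at least 5 reads, 0.466% of reads were methylated in open expressed genes (interval 0.462 to 0.470%, 703490 cytosines, 10178223 reads) and 1.78% in open silent genes (1.74 to 1.83%, 26743 cytosines, 298073 reads). These intervals treat every read as independent, which reads of the same cytosine and gene are not, so they are too narrow. The median over genes with at least 5 such cytosines was 0.285% (n = 11207) and 1.64% (n = 772). More than 20% methylation was found in 41 open expressed (0.366%) and 40 open silent genes (5.18%). Open silent genes that shared their region with an expressed gene had a median of 0.314%, near that of open expressed genes, and the others 2.06%. Reads come only from fragments that the transposase released, and 1 merged table allowed no test.

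Germline genes had the highest median DNAme of the gene lists with more than 2 such open members. Many genes of meiosis and of the piRNA pathway have CpG-rich promoters that are known to be methylated in somatic tissues. Of 18 such genes listed, 12 were open expressed, 1 open silent, 4 closed expressed and 1 between the limits. Among all protein-coding genes, 53.1% were open expressed and 3.98% closed expressed. The 13 open germline members had a median of 12.7% methylated reads (range 1.25 to 62.5%), and 11 of them were above 5%. The values were 62.5% for Asz1 (11 cytosines, 72 reads), the open silent member at 0.04 TPM, 47.1% for Mov10l1 (13 cytosines, 85 reads, 8.87 TPM) and 31.7% for Slc25a31 (17 cytosines, 101 reads, 1.45 TPM). At the low end stood the RNA-binding protein gene Dazl with 1.25% over 1281 reads, at 12.7 TPM and a column 7 of 15.3. The median was 0.502% for 19 pluripotency genes, 0.274% for 16 housekeeping genes, 0.399% for 26 lineage factors and 0.873% for 11 fibroblast genes. The highest member of the first 3 of these lists stood at 5.26%. Asz1 had no peak in any of the 8 samples and Mov10l1 and Slc25a31 had one in a single sample, so their regions rest on the pooled reads.

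Closed expressed genes had low TPM with some exceptions of little unique sequence. Their median was 3.98 TPM against 19.2 TPM in open expressed genes, and 56.7% of them, against 18.8%, were under 5 TPM. Above 100 TPM there were 41, of which 20 had under 50% unique exonic 31-mers and 16 a single exon. Over the whole set 17.0% (146 of 859) had under 50% unique exonic 31-mers, against 2.18% of open expressed, 22.7% of closed silent and 8.53% of all protein-coding genes. Little unique sequence was thus not particular to the closed expressed set. Around the 5′ end, all 31-mers were unique in 91.3% of open expressed and 90.5% of open silent genes. The share was 74.2% of closed expressed and 58.3% of closed silent genes, against 81.3% of all. Whether this kept regions from being called at closed starts was not tested. The 146 closed expressed genes with under 50% unique exonic 31-mers held 66.4% of the TPM of the set. Reads of a gene and its near copies cannot be told apart where the sequence is identical, and the way such reads were counted is not given in the sources used here.

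Of the 14 genes named for their TPM, 8 had under 50% unique exonic 31-mers and 7 a single exon. Rps12-ps3 (3873 TPM, 0% of exonic 31-mers unique), Rpl10-ps3 (2348 TPM, 1.35%), Gm2000 (2345 TPM, 9.52%), Gm11808 (1904 TPM, 10.4%) and Gm10184 (411 TPM, 0.510%) had a single exon and lay 5776 to 23652 bp from the nearest merged region. The histone gene Hist1h2ap (1115 TPM, 0%) lay 1300 bp from a region. Rpl19 (3421 TPM, 36.0%) has introns and lay 7166 bp away, with no peak in any of the 8 samples.

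Other named genes of the set had mostly unique exonic sequence. Pfn1 (741 TPM, 98.7% unique) lay 1062 bp from a merged region, just beyond the limit, and had a peak within 1 kb in M-ATAC-NC 1 alone (4.53). Bex1 (408 TPM, 66.4%), a brain-expressed X-linked gene, lay 1649 bp away with a peak in ATAC 2 (4.19), and Ifitm3 (328 TPM, 77.8%) lay 1464 bp away with none. Arhgdia (280 TPM, 96.6%), an inhibitor of small GTPases, had no peak in any sample and a region 7687 bp away. Psmc1 (263 TPM, 68.9%), an ATPase of the proteasome, lay 5140 bp away but had a peak in M-ATAC-NC 1 and 2 (3.70 and 4.10) and ATAC 2 (4.58). Gm20594 (197 TPM, 88.1%) lay 238947 bp from any region. Of the 14 genes named for their TPM, 11 thus had a peak in none of the 8 samples.

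Distance to the nearest region split the set. It was a median of 4741 bp (1003 to 1285606 bp), against 29415 bp in closed silent genes, and 34.2% of closed expressed against 7.33% of closed silent genes had a region between 1 and 3 kb. Taken in order, 146 genes had under 50% unique exonic 31-mers, 129 others a peak of at least 1 sample within 1 kb, 219 others a region between 1 and 3 kb, and 365 (42.5%) none of these. The last part held 9.88% of the TPM of the set at a median of 2.85 TPM. The part with a peak in a sample had a median CpG ratio of 0.628, against 0.329 to 0.349 in the other parts.

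Fibroblast genes at 1 TPM or more are to be read against all expressed genes, of which 93.0% were open. Of 21 fibroblast genes, 13 were open expressed and 6 closed expressed, where 53.1% and 3.98% of all protein-coding genes were. The closed expressed ones were Col3a1 (11.3 TPM), Col6a1 (5.46 TPM), Dcn (1.92 TPM), Pdgfrb (4.71 TPM), Prrx1 (2.77 TPM) and S100a4 (32.0 TPM), which encode collagens, a matrix proteoglycan, a growth factor receptor, a homeobox factor and a calcium-binding protein. None had a peak in any sample. Of the 10 markers of the feeder layer, 4 were closed expressed, 4 open expressed, 1 closed silent and 1 between the limits. Their TPM ranged from 0.08 for Lum to 48.7 for Col1a1 with a sum of 130, none at 0, against 9190 for the sum of the 10 stem cell markers. The whole list of 21 fibroblast genes summed to 990 TPM, of which the fibronectin gene Fn1 held 612, Acta2 85.3 and Tagln 63.0. The feeders were in these cultures before pre-plating, and their part in the set was not tested. Collagen genes as a class had 8 of 45 members closed and expressed, against the same 3.98% of all genes.

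The Rhox and 2-cell-like genes were called closed, where 65.4% of all and 15.3% of silent protein-coding genes were open. All 34 Rhox homeobox genes of the X chromosome were closed, 26 of them silent, and Rhox5 reached 68.2 TPM with the nearest region 2391 bp away and no peak in any sample. None of 12 genes of the 2-cell-like state, a rare state of mESC cultures, was open. None had only unique 31-mers within 100 bases of the 5′ end, with 0% unique in Zscan4f and 90.1% in Usp17lb. Whether near copies kept peaks from being called there was not tested. Zscan4f (1.73 TPM) and Zscan4c (1.07 TPM) were closed expressed, 5 were closed silent and 5 lay between the limits. Germline genes were open in 13 of 18 cases, where 65.4% of all and 93.0% of expressed protein-coding genes were. The 4 closed expressed ones, Sycp1, Hormad1, Tdrd1 and Dpep3, stood at 1.48 to 7.97 TPM. Of these, Hormad1 had a peak in M-ATAC-NC 2 (3.95) and Sycp1 in ATAC 2 (3.72).

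Chemosensory receptors were the largest of the families counted among closed silent genes. Olfactory receptors gave 1065 of the 5495, vomeronasal receptors 286, predicted genes named Gm 921, keratins and keratin-associated proteins 91, cytochrome P450 genes 65, defensins 59 and taste receptors 37. The share open was 1.56% of 1090 olfactory receptors (interval 0.976 to 2.48%), 1.37% of 293 vomeronasal receptors and 7.34% of 109 keratin genes. The median CpG ratio of these 3 classes was 0.106, 0.0927 and 0.239. Of the 5495 genes, 76.8% were listed at 0 TPM, against 33.7% of open silent genes. The nearest region was over 10 kb away for 74.9%.

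**Figure D4:**
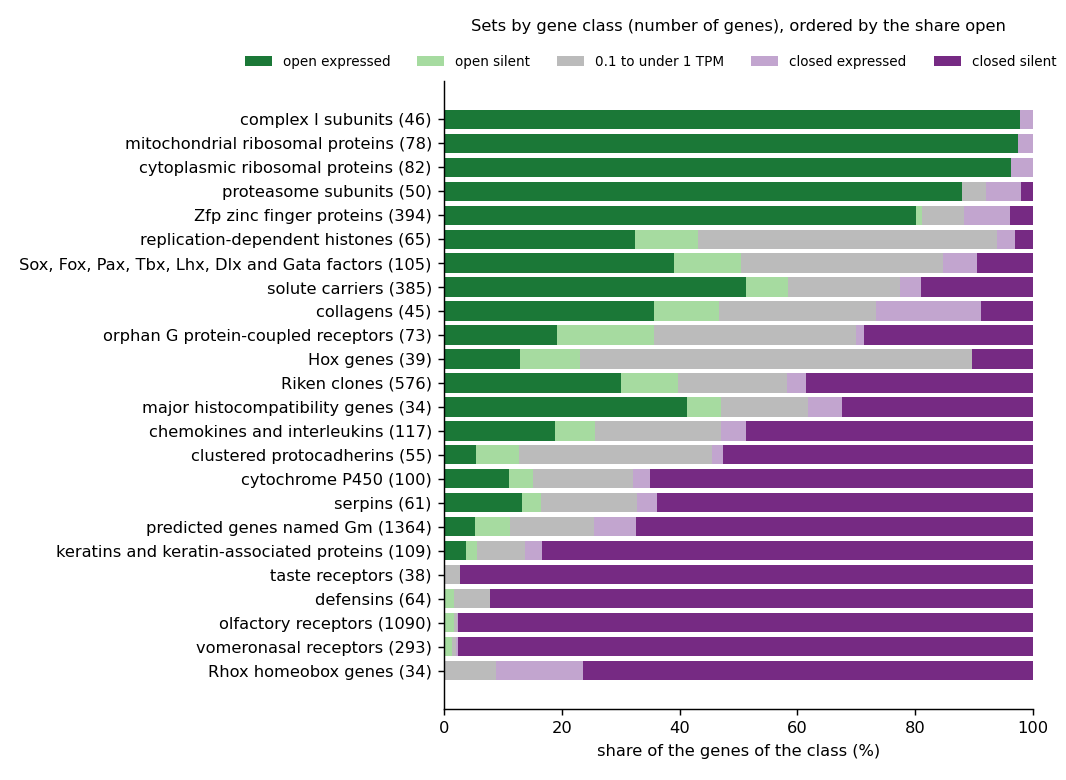
Share of the genes of each class in each set, with classes ordered by the share open and genes from 0.1 to under 1 TPM in grey. Complex I, ribosomal protein and proteasome genes are almost wholly open and expressed, olfactory, vomeronasal and taste receptors and defensins almost wholly closed and silent, and Hox and histone genes hold a large grey part.

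CTCF, the zinc finger protein of insulators, was also mapped in these cells. A merged CTCF M-ChIP region lay within 1 kb of a start in 18.3% of all protein-coding genes, and in 25.7% of open expressed, 19.4% of open silent, 13.0% of closed expressed and 2.93% of closed silent genes. The intervals of the first 3 sets (24.9 to 26.5%, 17.1 to 22.0% and 11.0 to 15.5%) did not overlap. CTCF regions were looked for at all starts of a gene, with a median of 5, 2, 3 and 2 distinct starts in the 4 sets. More sequence was thus searched per gene in the open expressed set, and the part of this in the shares was not tested.

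Samples that were not part of the merged list showed fewer of the open silent than of the open expressed promoters. A peak within 1 kb was found in M-ATAC-NC 1 and 2 for 83.9% and 88.8% of open expressed and 55.3% and 60.9% of open silent genes. In ATAC 1 and 2 it was found for 78.1% and 86.1% against 53.8% and 62.1%. The sets did not overlap in these samples. The mean difference was -26.2 percentage points ± 2.38 (SD, n = 4), with the silent genes lower in 4 of 4 samples and p = 0.125 by an exact sign-flip permutation test, two-sided. This is the smallest p that 4 samples allow, so 0.05 could not be reached. The M-ATAC-NC samples are aliquots of the material that was converted, so they are not separate cells from those behind the merged list.

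This difference was also taken within classes of peak strength and of CpG content. In the lowest quintile of merged column 7, 51.1% ± 8.28 (SD, n = 4) of open expressed and 36.2% ± 4.42 of open silent genes had a peak, and in the highest 98.4% ± 1.37 and 91.9% ± 4.39. From the lowest to the highest quintile the mean difference was -14.9, -20.3, -14.4, -8.01 and -6.47 percentage points, each smaller than without the split. By CpG ratio it was -29.2 percentage points for genes under 0.4, -15.6 from 0.4 to under 0.6 and -15.9 at 0.6 or more. The part of either in the difference was not tested further.

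**Figure D5:**
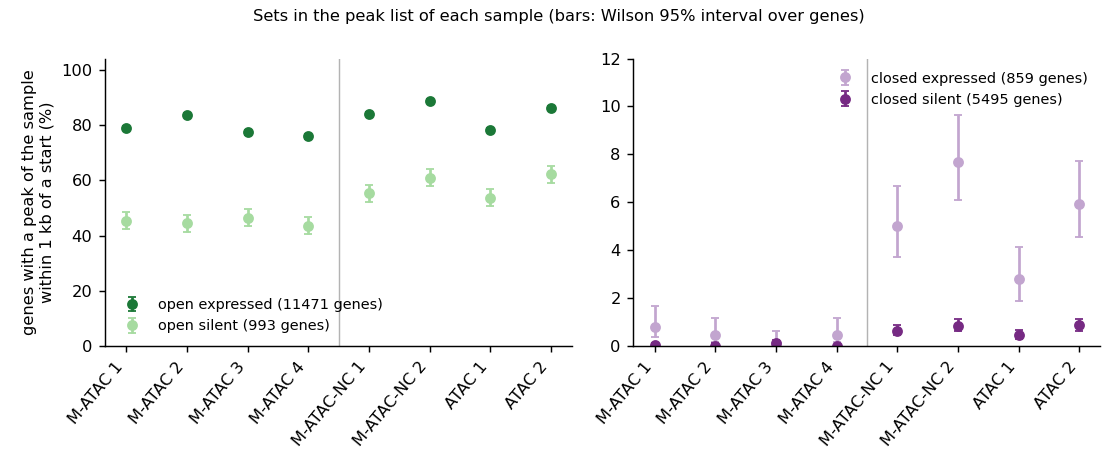
Percentage of the genes of each set with a peak of a sample within 1 kb of a start, in 4 M-ATAC, 2 M-ATAC-NC and 2 ATAC samples, with Wilson 95% intervals over genes. Open silent genes, at 43.5 to 62.1%, lie below open expressed genes, at 75.9 to 88.8%, in each of the 8 samples, and closed expressed genes, on the enlarged axis, reach 7.68%.

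Among genes with a peak in a sample, the open silent ones also had the lower column 7. The medians were 9.07, 9.50, 7.98 and 8.04 for open expressed and 6.98, 7.52, 6.71 and 6.62 for open silent genes in M-ATAC 1 to 4. They were 7.37 and 7.89 against 6.09 and 6.42 in M-ATAC-NC, and 6.04 and 6.29 against 5.52 and 5.79 in ATAC. Over the last 4 samples the difference was 0.94 ± 0.50 (SD, n = 4), higher for expressed genes in 4 of 4, with p = 0.125 by the exact sign-flip permutation test, the smallest possible. For genes with a peak in all 4 it was 0.67, from 0.11 to 1.28, with the same exact p = 0.125.

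The M-ATAC samples themselves held fewer of the open silent promoters than the other groups. The share was 45.4%, 44.4%, 46.4% and 43.5% in M-ATAC 1 to 4, and all 4 lay below the 4 other samples. The mean was 44.9% ± 1.26 (SD, n = 4) in M-ATAC, 58.1% ± 3.99 (SD, n = 2) in M-ATAC-NC and 58.0% ± 5.91 (SD, n = 2) in ATAC. M-ATAC differed from ATAC by -13.0 and from M-ATAC-NC by -13.2 percentage points. No p is given, because M-ATAC samples feed the merged list that chose the set. For open expressed genes M-ATAC, at 75.9 to 83.6%, overlapped ATAC, at 78.1 and 86.1%, and lay below M-ATAC-NC, at 83.9 and 88.8%. A peak in none of the 8 samples was found for 14.8% (147) of open silent and 2.33% of open expressed genes, which rest on the pooled reads alone.

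Closed expressed genes had a peak in the other samples more often than closed silent genes, though rarely. In M-ATAC-NC 1 and 2 it was 5.01% and 7.68% against 0.655% and 0.855%, and in ATAC 1 and 2 it was 2.79% and 5.94% against 0.473% and 0.874%. The mean difference was 4.64 percentage points ± 1.87 (SD, n = 4), higher in 4 of 4 samples, with p = 0.125 by the exact sign-flip permutation test, the smallest possible. With peaks of a −log10 q of at least 5 alone it was 1.01 percentage points. In M-ATAC samples 0.466% ± 0.285 (SD, n = 4) of closed expressed genes had a peak. None of the 8 samples had one for 84.6% (727) of closed expressed genes.

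Genes just inside and just outside the limits had nearly equal values. Col26a1 and E430018J23Rik were listed at 1.00 TPM, and Acpp and Gm20826 at 0.99 TPM. At the lower limit, 1700028K03Rik and 1700057G04Rik stood at 0.10 TPM, and 1700012B09Rik and 1700066B19Rik at 0.09 TPM. Abcc2 and Gm20479 lay 998 bp from a region and were open, while Srgn, a proteoglycan gene at 160 TPM, and Fat4, a cadherin gene at 0.15 TPM, were closed at 1003 and 1004 bp. In all, 98 genes stood at 0.10 TPM and 122 at 0.09 TPM, the last digit of the table.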

How the data were processed

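Peaks of mESC were deposited as MACS2 lists, in which the authors give each summit a fold enrichment ratio (column 7) and a −log10 q-value. Reads were trimmed, aligned to mm10 with Bismark 0.18.1 (converted) or bowtie2 (ATAC), freed of duplicates and filtered against a blacklist. The aligner for M-ATAC-NC, the M-ATAC samples behind the merged list and the aligner and annotation behind the deposited TPM of merged replicates are not given in the sources used here. The authors' methylation table gives a count of methylated and unmethylated reads per cytosine of the pooled M-ATAC. Read depth per sample was not used here.

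Of 47606 genes in the TPM table, 47187 matched GENCODE M21 by identifier. Distinct regions were compared with all transcript starts (bedtools 2.31.1 and Python 3.11.15, with numba 0.67.0, numpy 2.4.6, scipy 1.17.1, pandas 2.3.3, matplotlib 3.10.9). CpG content and 31-mers came from the GRCm38 reference, in which 100% of the tabled cytosines lie in a CG. Exonic 31-mers were taken every 10 bases. RefSeq promoters matched too few genes, and bases upstream of GENCODE 5′ ends were used. Shares have Wilson 95% intervals. Shares in M-ATAC-NC and ATAC samples were compared by exact sign-flip permutation tests, checked on simulated data, and other results carry no test. A permutation test planned for M-ATAC against the other groups is not reported, since M-ATAC samples chose the set.

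Named were the 5 open expressed genes of highest TPM and of highest column 7, the 10 open silent of highest column 7 and the 5 with no other start within 1 kb, the 10 closed expressed of highest TPM and the 5 with a start of unique 31-mers and no overlapping gene, the 2 nearest each limit, list members, Klf4 and Slc5a8. Members, lists and classes were chosen with earlier results of these data known. Some genes that the rule names are not reported here. Alternatives varied the start, window, peak and TPM limits, shared starts, coverage minimum and each sample left out.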

Additional observations from a re-analysis of the deposited data

How the results depend on the processing

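Alternatives were run for set sizes, set methylation, recovery and the column 7 difference, and none of these changed direction. CpG content, motifs, CTCF, classes, lists, distance and uniqueness had no alternative. The size of a set moved by more than 1.5 times in 8 cases. With only regions that overlap a peak of every M-ATAC sample there were 7165 open expressed, 247 open silent and 5165 closed expressed genes. Without genes that have another start within 1 kb there were 7207 open expressed genes. With silent set at 0 TPM there were 335 open silent genes. Closed expressed genes numbered 1619 with the 5′ end of the gene alone, 565 within 3 kb and 372 at 5 TPM or more. These follow from the narrower or wider definition. Methylated reads were 0.367% in open expressed and 1.10% in open silent genes at 10 reads or more, and 0.524% and 2.21% at 1 read or more, and the cause was not tested.

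With each sample left out in turn, the difference in recovery between open silent and open expressed genes ranged from -27.0 to -25.4 percentage points, that between closed expressed and closed silent genes from 3.91 to 5.41, that between M-ATAC and ATAC from -17.2 to -8.84, and that between M-ATAC and M-ATAC-NC from -16.0 to -10.3. With a replicate block over samples 1 and 2, M-ATAC differed from ATAC by -13.0 and from M-ATAC-NC by -13.2 percentage points. The correlation of the deviations of same-numbered samples was 0.0190 with ATAC and 0.0332 with M-ATAC-NC, over 2 pairs. M-ATAC-NC samples are aliquots of converted material, but the sources used here do not tie each to a numbered M-ATAC sample. Chosen after seeing the data, open silent genes with no shared region differed from open expressed ones by -28.0 percentage points. Closed expressed genes with at least 50% unique exonic 31-mers, 713 in number, differed from closed silent ones by 5.45, and counting a peak of any sample as open left 727 closed expressed and 1105 open silent genes. The merged tables allow no error over replicates, and no p in these designs can reach 0.05.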

Other observations

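Some single genes stood out after their values were seen, and they are given as values. Of the closed expressed genes, 4 had a peak within 1 kb in all 4 M-ATAC-NC and ATAC samples and none in M-ATAC. They were the RIKEN clone 4933415A04Rik, Crabp1 (36.8 TPM, 1117 bp from a merged region), which binds retinoic acid, Kmt2a (9.01 TPM, 1306 bp), a histone methyltransferase, and Usp51 (1.87 TPM, 1055 bp), a ubiquitin protease. Crabp1 had a column 7 of 4.95 and 5.23 in M-ATAC-NC 1 and 2 and of 4.72 and 3.72 in ATAC 1 and 2. Kmt2a had 5.84 and 5.06, and 4.88 and 3.98.

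Of the 17 open olfactory receptors, all silent, Olfr823 had the highest column 7 at 17.3, with a region 765 bp from its start and a peak in 7 of 8 samples, and none in ATAC 2. The vomeronasal receptor Vmn1r4 (0.08 TPM, column 7 of 15.5) had a peak in 8 samples.

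Klf4, named by the study, was open and expressed at 270 TPM, with a column 7 of 5.63 in the merged list, a peak in 7 of 8 samples (none in M-ATAC 4) and 0.194% methylated reads over 2063 reads. Slc5a8, a sodium-coupled transporter gene also named by the study, was closed at 0 TPM, 6661 bp from a merged M-ATAC region, with a CTCF region within 1 kb and a peak in M-ATAC-NC 2 (4.45) and ATAC 2 (4.08).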
